A study of Mus musculus with 81 samples.

Results

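The genes described here are Pcp4, Pcp4l1, Nrgn, Gap43, Calm2 and Calm3, 6 of the 57010 genes in the count tables, selected by name as small calmodulin-binding proteins of neurons and calmodulin genes. Each symbol matched 1 gene identifier. RNA came from CA1 pyramidal neurons (CA1 PNs), CA3 pyramidal neurons (CA3 PNs) and dentate gyrus granule cells (DGCs) that were cut from Nissl-stained sections by laser capture microdissection (LCM) at about 6 months of age (MO). The Ts65Dn mice (Ts) carry an additional marker chromosome with part of mouse chromosome 16 (Mmu16), orthologous to part of human chromosome 21, and a piece of Mmu17 that is not orthologous to it. The controls were disomic littermates (2N). Dams received a choline normal diet (1.1 g/kg) or a choline supplemented diet (5.0 g/kg) through pregnancy and lactation.

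The 81 libraries came from 28 mice. CA1 PNs gave 6 libraries of 2N and 5 of Ts mice on the normal diet, and 7 and 9 on the supplemented diet. CA3 PNs gave 6 and 6 on the normal diet and 7 and 7 on the supplemented diet, and DGCs gave 6 and 6, then 7 and 9. Each library is many neurons of 1 population from 1 mouse, so fewer cells of a kind and less RNA per cell cannot be told apart. The normal diet mice were males, and the sex of the supplemented mice was not given in the sources used here. The CA3 library of mouse 15-145 carries a Ts label, while its CA1 and DGC libraries carry a 2N label, and it is counted here as 2N.

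Calmodulin is the main calcium sensor of the cytoplasm and, once loaded with calcium, activates CaM kinases, calcineurin, adenylyl cyclases and phosphodiesterases. Calm2 and Calm3 encode the same protein, calmodulin itself. Pcp4 (Purkinje cell protein 4, PEP-19), its homolog Pcp4l1, neurogranin (Nrgn) and GAP-43 (Gap43) are small proteins with an IQ motif, the stretch through which calmodulin is bound. Pcp4 speeds the exchange of calcium at calmodulin, neurogranin holds calmodulin in dendritic spines until protein kinase C phosphorylates it, and GAP-43 does the like in axons and growth cones. In the hippocampus Pcp4 protein is known as a marker of CA2 pyramidal neurons and is also found in granule cells, and the gene lies in the triplicated part of Mmu16.

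All coordinates are GRCm39, and the sequences were read from the Gencode transcripts and placed with the coordinates of the Gencode annotation. Pcp4 lies on the plus strand at chr16:96268806-96326997, Pcp4l1 on the minus strand at chr1:171000246-171023837 and Nrgn on the minus strand at chr9:37452275-37464689. Gap43 is also on Mmu16, on the minus strand at chr16:42068805-42161086, but outside the triplicated segment. Calm2 is at chr17:87740829-87754363 and Calm3 at chr7:16649290-16658156, both on the minus strand. The 4 IQ proteins have 62 (Pcp4), 68 (Pcp4l1), 78 (Nrgn) and 227 (Gap43) codons. The coding sequence of Pcp4, Pcp4l1 and Nrgn around the IQ motif is shown because it is the part they share, with the 11 codons of the motif in capitals and 3 codons on either side.
Pcp4, exon 3, chr16:96326655-96326705: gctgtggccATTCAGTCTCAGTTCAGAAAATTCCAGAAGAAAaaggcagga
Pcp4l1, exon 3, chr1:171001964-171002014: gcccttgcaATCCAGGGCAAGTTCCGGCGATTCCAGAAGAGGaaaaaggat
Nrgn, exon 2, chr9:37457348-37457398: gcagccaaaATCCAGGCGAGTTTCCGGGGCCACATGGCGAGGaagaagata
Of the 33 motif bases, Pcp4 and Pcp4l1 shared 22, and 7 of their 11 codons gave the same residue. Likeness to Nrgn was lower, with 14 bases and 4 codons for Pcp4 and 21 bases and 5 codons for Pcp4l1.

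Calm2 and Calm3 have 447 coding bases each and differed at 78 of them, 74 of which are the third base of a codon, and 0 residues differed. The first 90 coding bases are shown because they tell how reads of these genes can be assigned, with capitals at the 15 positions where they differ.
Calm2, exons 1 to 3: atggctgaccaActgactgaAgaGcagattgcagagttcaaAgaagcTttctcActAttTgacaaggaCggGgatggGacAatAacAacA
Calm3, exons 1 to 3: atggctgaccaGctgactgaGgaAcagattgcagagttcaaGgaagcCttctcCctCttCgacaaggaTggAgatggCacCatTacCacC
Coding identity was 82.6%, and the longest run of identical bases shared by the transcripts was 17 bases. The authors' counting divides reads that match several genes, so how reads were shared between Calm2 and Calm3 was not tested.

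Levels are given as CPM, counts scaled to a common library size after TMM normalization over all libraries. Differences are log2 fold changes (LFC) with their standard error (SE) from edgeR's quasi-likelihood test, and p-values were adjusted by Benjamini-Hochberg over all genes tested. A gene is called changed at an adjusted p under 0.05, and the study's own rule for DEGs, an unadjusted p under the same threshold, is given beside it. Totals ranged from 358355 to 4744036 estimated counts per library. Markers of the captured cells were mostly high where the labels place them. The summed dentate list was 2368 to 3056 CPM in DGCs and at most 189 elsewhere. The summed CA3 list was 736 to 917 CPM in CA3 PNs and at most 184 CPM in DGCs. In libraries labelled CA1 it was 20.5 to 707 CPM, at its highest close to the CA3 PNs. The CA1 list was 53.7 to 1771 CPM in libraries labelled CA1 and at most 56.9 elsewhere, so some CA1 libraries were near the level of the other populations. Decorin (Dcn) on that list was at or near 0 in all CA1 libraries.

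Pcp4 in CA1 PNs was either near 0 or high, in every group of mice. In 2N mice on the normal diet the library of mouse 15-147 had 0 CPM, 17-172 had 1.11, 15-145 had 1.25, 17-56 had 10.4, 17-154 had 151 and 17-21 had 332. In Ts mice on the normal diet, 17-157 and 17-173 had 0 CPM, 16-490 had 2.46, 17-153 had 2.64 and 16-357 had 261. The high Ts library is thus 1 of 5 and the high 2N libraries are 2 of 6. In 2N mice on the supplemented diet, 14-125 and 15-296 had 0 CPM, 15-269 had 3.28, 16-273 had 8.19, 15-334 had 107, 15-336 had 221 and 16-90 had 239.9. In Ts mice on the supplemented diet, 15-245 and 17-03 had 0 CPM, 14-90 had 1.71, 16-206 had 2.88, 15-36 had 18.3, 15-198 had 99.9, 15-140 had 132, 16-272 had 218 and 15-199 had 334. The genotypes overlapped over almost their full range in both diets. A count of 0 allows up to 3 counts, which is 2.41 to 4.50 CPM in the 7 libraries at 0, so these were not distinguishable from the libraries with 1 to 4 counts.

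The high libraries were those with CA2 markers. The mean log2 CPM of 6 CA2 genes (Amigo2, Rgs14, Necab2, Map3k15, Cacng5 and Ccdc3, not Pcp4) was at most 3.16 in 17 CA1 libraries and at least 5.58 in the other 10, which are called CA2-rich below. This split was drawn from the data and is a description. All 10 libraries with Pcp4 above 90 CPM were CA2-rich, 5 of 2N and 5 of Ts mice. Summed CA2 markers were 422 to 1773 CPM in the CA2-rich and 71.0 to 134 CPM in the other libraries. Amigo2, an adhesion protein that marks CA2, was 82.8 to 427 against 0 to 17.7 CPM, and Rgs14, a G protein regulator that marks CA2, was 211 to 755 against 69.1 to 124 CPM. The CA1 list as a whole moved the other way, with a sum of 53.7 to 947 CPM in the CA2-rich and 1173 to 1771 CPM in the other libraries. Wfs1 was 6.87 to 414 CPM against 363 to 877 CPM in the other libraries. Fibcd1 and Mpped1 also had lower medians in the CA2-rich libraries, whereas Spink8 on the same list had a higher one (60.7 against 36.3 CPM, with ranges of 29.8 to 79.1 and 13.5 to 60.2 CPM) and Dcn had a median of 0 in both. The CA3 list summed to 164 to 707 against 20.5 to 64.1 CPM and the interneuron list to 255 to 448 against 144 to 230 CPM, so neither overlapped either. The part of each of these in the Pcp4 level was not tested.

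**Figure D1:**
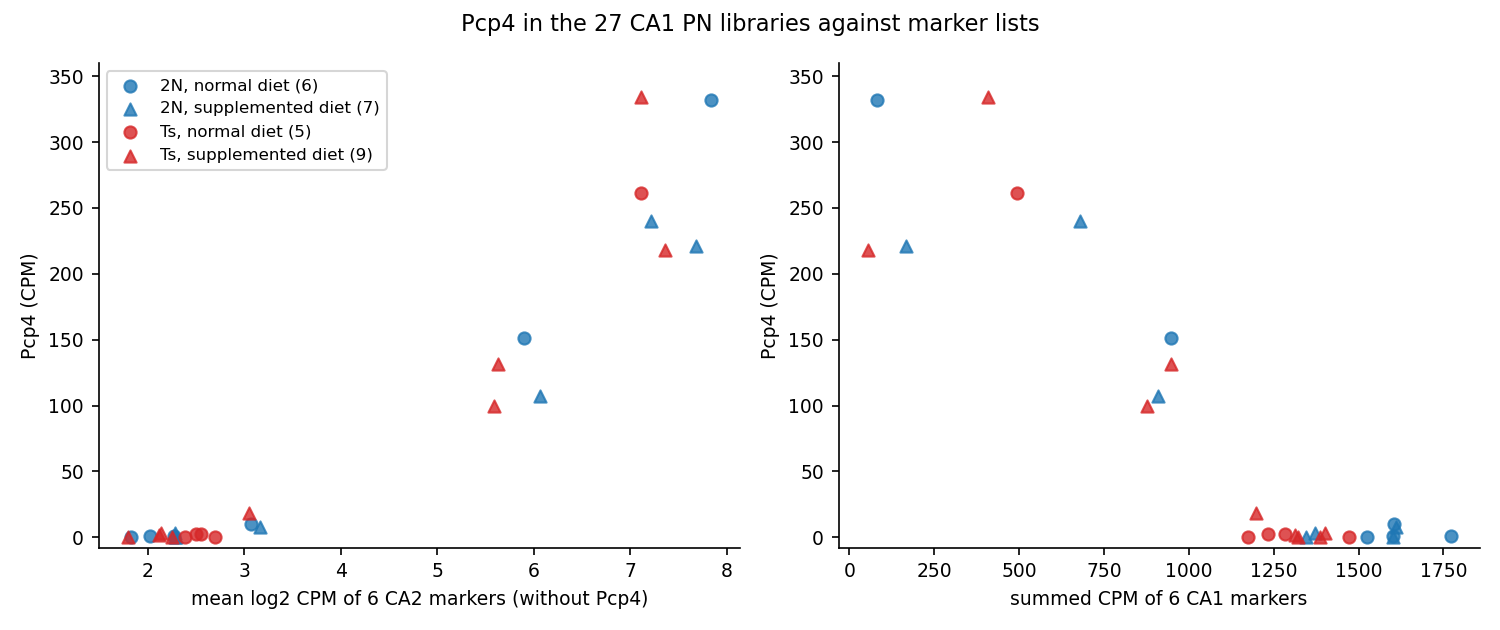
Pcp4 CPM in the 27 CA1 libraries against the mean log2 CPM of the 6 CA2 markers (left) and against the summed CPM of the 6 CA1 markers (right), 1 point per library, coloured by genotype and shaped by diet. Libraries with a CA2 mean over 4 had 99.9 to 334 CPM of Pcp4 and the others 0 to 18.3 CPM, with both genotypes in each cluster.

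Within the CA2-rich libraries Pcp4 had a median of 221 CPM in 2N and 218 CPM in Ts mice, and in the others 1.18 and 1.71 CPM. Set against the summed CA2 markers of the same library, Pcp4 was 12.4 to 29.5% (median 19.8%) in the CA2-rich 2N libraries and 17.0 to 30.6% (median 23.7%) in the CA2-rich Ts libraries, again with overlap. Within the 10 CA2-rich libraries log2 Pcp4 and the CA2 mean had a Pearson r of 0.88 (permutation p = 0.0021, adjusted over the 2 clusters 0.0021) and a Spearman rho of 0.70 (permutation p = 0.031, adjusted 0.060), and r was 0.80 without the 2 libraries farthest from the median. Within the other 17 libraries r was 0.74 (permutation p = 0.00084, adjusted 0.0017) and rho 0.47 (permutation p = 0.060), with r of 0.59 without 2. Leaving out the library farthest from the median gave r of 0.69 (permutation p = 0.0034) and rho of 0.37 (permutation p = 0.16), and without 2 more r was 0.19 (n = 14), so the relation in these libraries rests on a few of them. With Rgs14 alone in place of the list, r in these 17 libraries was 0.25 (permutation p = 0.34). No r of Pcp4 with the CA2 mean over all 27 libraries is given, since they form separate clusters.

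Over all genes few genotype differences were called. On the normal diet the called share was 0.00814% of 12286 genes for CA1 PNs, 0.662% for CA3 PNs and 0.588% for DGCs, and 3.77%, 9.2% and 8.5% had an unadjusted p under 0.05. On the supplemented diet 0.049%, 0.249% and 0.445% were called, and 3.6%, 4.99% and 7.6% had an unadjusted p under 0.05. Of the 6 genes, 1 (Pcp4) was called in DGCs on each diet and 0 in the CA1 and CA3 PNs, where 5 of 6 were tested in CA1 PNs on the normal diet and 6 of 6 in the others. By the unadjusted rule, in the fits made here, Pcp4l1 was added in CA3 PNs and Nrgn in DGCs, both on the normal diet.

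The Ts versus 2N comparison of Pcp4 in CA1 PNs had a wide error. On the normal diet Pcp4 did not pass the study's minimum of 0.1 CPM in 10 libraries and was not tested there. Without that filter the LFC was -0.64 (SE 1.73). On the supplemented diet the LFC was 0.13 (SE 1.19, adjusted p = 1.0), with a 95% interval of -2.20 to 2.47. With the CA2 mean as a covariate, the LFC was 0.66 (SE 0.38, adjusted p = 0.90) on the supplemented diet and, without the filter, -0.44 (SE 0.55) on the normal diet. With both diets in 1 fit it was -0.63 (SE 1.57) on the normal and 0.13 (SE 1.27) on the supplemented diet. Without the 10 CA2-rich libraries in that fit, an alternative chosen after seeing the data, it was -1.14 (SE 1.53) and 0.18 (SE 1.36).

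In DGCs Pcp4 was higher in Ts than in 2N mice on both diets. On the normal diet the 6 2N libraries had 78.1, 97.7, 119, 126, 131 and 133 CPM. The 6 Ts libraries had 155, 188, 207, 216, 221 and 234 CPM, so the lowest Ts library stood above the highest 2N library. This was the only genotype comparison of the 6 genes in which the groups did not overlap. The share of all genes without overlap was not counted. At an adjusted p under 0.05, 0.588% of all genes were called in this comparison. The means were 114 ± 21.9 CPM (SD, n = 6) in 2N and 203 ± 28.3 CPM (SD, n = 6) in Ts mice, an LFC of 0.84 (SE 0.11, 1.79-fold, adjusted p = 1.34e-05). On the supplemented diet the 7 2N libraries had 56.8 to 123 CPM (median 102) and the 9 Ts libraries 107 to 187 CPM (median 144). There 7 of 9 Ts libraries were above all 2N libraries, and those of mice 15-199 (107 CPM) and 15-140 (115 CPM) were not. The means were 96.4 ± 23.1 CPM (SD, n = 7) and 148 ± 26.7 CPM (SD, n = 9), an LFC of 0.63 (SE 0.14, 1.54-fold, adjusted p = 0.044). This call was near the threshold: the adjusted p was 0.055 with both diets in 1 fit, and it passed 0.05 on leaving out each of 8 of the 16 mice, with LFC of 0.58 to 0.67.

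**Figure D2:**
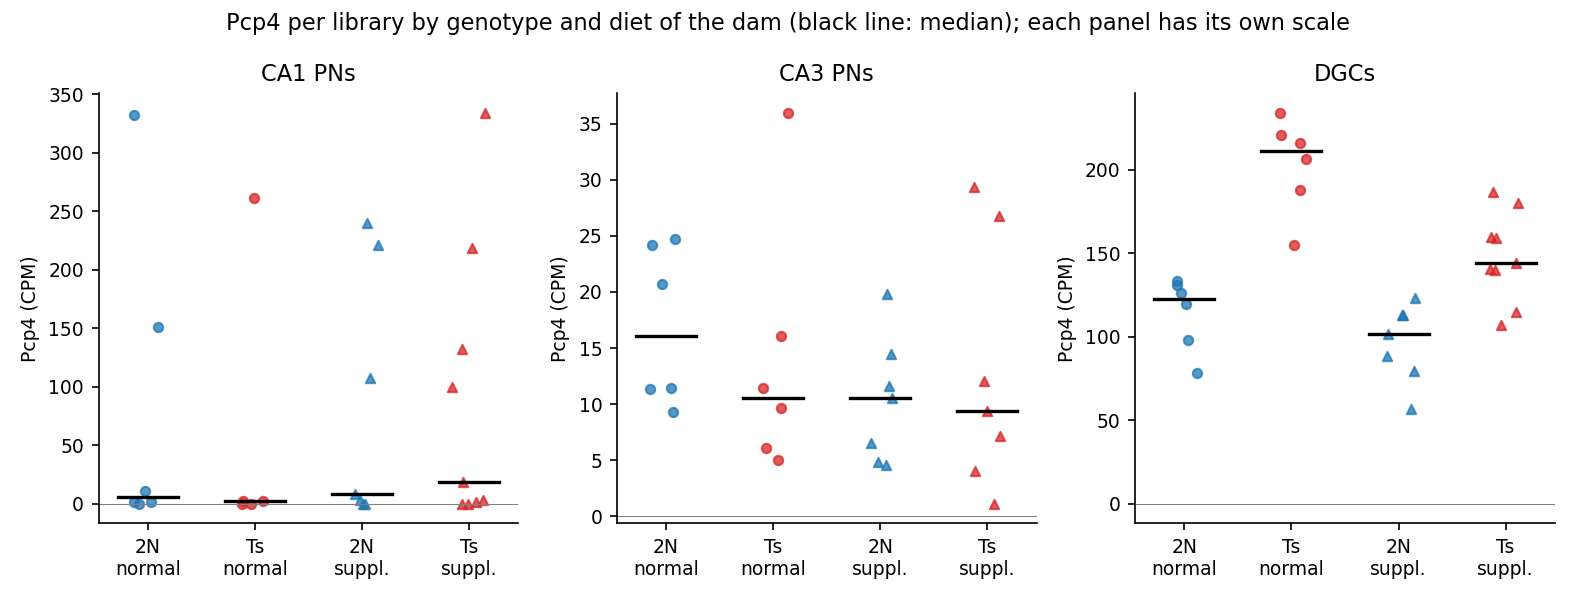
Pcp4 CPM in each library, with 1 panel per population and groups set by genotype and maternal diet, with the group median as a black line and its own CPM axis for each population. In DGCs the normal diet groups are apart (78.1 to 133 against 155 to 234 CPM), in CA3 PNs all 4 groups overlap, and in CA1 PNs each group holds libraries near 0 and libraries above 90 CPM.

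In CA3 PNs Pcp4 was low in every group and no genotype difference was called. Its unadjusted p was not under 0.05 on either diet. The study, by its unadjusted rule, reports Pcp4 as significantly lower in CA3 PNs of Ts mice and higher in their DGCs. Its model had covariates that were not used here, and the part of these in the unlike results was not tested. The 2N libraries had 9.29 to 24.7 CPM (median 16.1) on the normal and 4.57 to 19.9 CPM (median 10.6) on the supplemented diet. The Ts libraries had 5.01 to 36.0 CPM (median 10.54) and 1.11 to 29.4 CPM (median 9.38). All 4 ranges overlapped. The LFC was -0.46 (SE 0.47, adjusted p = 0.86) on the normal and 0.32 (SE 0.55, adjusted p = 0.999) on the supplemented diet. With the CA3 library of mouse 15-145 under the Ts label instead, the normal diet LFC was -0.04. The highest Pcp4 in CA3 PNs, 36.0 CPM in Ts mouse 16-357, stood beside CA2 and dentate sums of 75.03 and 19.5 CPM, ranks 14 and 25 of 26, whereas the 29.4 CPM of Ts mouse 15-140 came with the highest dentate sum of the 26 CA3 libraries (189 CPM).

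Pcp4 belongs to 68 Mmu16 genes that the study lists as triplicated, and its place among them differed by population. In DGCs it ranked 7 of 65 tested by LFC on the normal diet, where 63 of 65 were positive, 24 were called higher and the median LFC was 0.56, against 0.003 over all genes. On the supplemented diet it ranked 27 of 67, with 66 positive, 27 called and a median of 0.60. In CA3 PNs it ranked 64 of 66 and 58 of 67 on these diets, where 30 and 25 of the list were called higher and the medians were 0.56 and 0.53. In CA1 PNs on the supplemented diet it ranked 58 of 66. Its nearest tested neighbours had smaller LFC than Pcp4 in DGCs on the normal diet. B3galt5, a glycosyltransferase gene before it, had an LFC of 0.27 (SE 0.10, adjusted p = 0.35), and Dscam, a cell adhesion gene after it, had 0.32 (SE 0.09, adjusted p = 0.0998). In CA3 PNs on the normal diet the same genes were called, B3galt5 at 0.53 (SE 0.11, adjusted p = 0.0081) and Dscam at 0.59 (SE 0.10, adjusted p = 0.00021). These differences in LFC between genes were not tested.

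The genotype effect on Pcp4 was also compared between populations. The difference of CA3 PNs minus DGCs on the normal diet was -1.34 (SE 1.42, adjusted p = 0.9999) with all 3 populations in the fit. With CA3 PNs and DGCs alone, an alternative chosen after seeing the data, it was -1.39 (SE 0.44, unadjusted p = 0.0048, adjusted p = 0.41). Neither passed the threshold after adjustment.

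For all population comparisons the background of calls was high. Without the supplement 23.3% of genes were called between CA1 and CA3 PNs in 2N and 25.3% in Ts mice, 34.3% and 33.7% between CA1 PNs and DGCs, and 43.7% and 44.5% between CA3 PNs and DGCs. With the supplement these were 22.9% and 24.5%, 31.8% and 39.3%, and 40.4% and 44.2%. Scaling by library totals in place of TMM shifted the median LFC of all genes by -0.18 to -0.22 in CA3 PNs versus DGCs and by -0.09 to -0.16 in CA1 PNs versus DGCs. The differences below are larger than these shifts unless stated.

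Across populations the CA3 library had less Pcp4 than the DGC library in 26 of 26 mice that had both. The LFC of CA3 PNs versus DGCs was -2.70 (SE 0.93, adjusted p = 0.027) in 2N mice on the normal diet, -3.27 (SE 0.89, adjusted p = 0.0060) in 2N mice on the supplemented diet, -4.03 (SE 1.02, adjusted p = 0.0044) in Ts mice on the normal diet and -3.57 (SE 0.90, adjusted p = 0.0023) in Ts mice on the supplemented diet. The libraries of the 2 populations did not overlap in any of these groups, and the share of all genes without such overlap was not counted. The adjusted p of the 2N normal diet passed 0.05 on leaving out mouse 17-154 (0.090), 17-172 (0.051) or 17-56 (0.053), at an LFC of -2.53 to -2.73. The SE was smaller with CA3 PNs and DGCs alone, at -2.66 (SE 0.22), -3.29 (SE 0.24), -4.04 (SE 0.32) and -3.57 (SE 0.32) in the same order.

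The comparisons of Pcp4 with CA1 PNs turned on the CA2-rich libraries. CA1 PNs versus CA3 PNs had an LFC of 3.05 (SE 0.89, adjusted p = 0.016) in 2N and 2.89 (SE 0.90, adjusted p = 0.020) in Ts mice on the supplemented diet. Without the supplement it was 2.24 (adjusted p = 0.11) and 2.11 (adjusted p = 0.21). With the mouse as a block the supplemented values were 2.42 (adjusted p = 0.057) and 2.13 (adjusted p = 0.15), which ended both calls. With limma-voom they were 0.76 (adjusted p = 0.71) and 0.80 (adjusted p = 0.74), and the normal diet values were -0.62 and -1.42, none of them called. In 15 of 25 mice Pcp4 was nevertheless lower in the CA1 than in the CA3 library. Without the 10 CA2-rich libraries the LFC was -2.44 in 2N and -3.03 in Ts mice on the normal diet, and -1.67 and -1.94 on the supplemented diet. Those 10 are also the 10 with the highest Pcp4 in CA1 PNs. Lower values without them follow from that choice, so these fits are a description and not a test. In Ts mice on the normal diet 1 library decided the direction, since leaving out the CA2-rich mouse 16-357 gave -2.59.

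CA1 PNs versus DGCs had LFC of -0.46, -0.23, -1.92 and -0.68 for Pcp4 in 2N normal, 2N supplemented, Ts normal and Ts supplemented mice, and none was called. With limma-voom they were -3.33, -2.63, -5.79 and -3.21, and all 4 were called (adjusted p = 0.00043 to 0.038). With the mouse as a block Ts mice on the normal diet had -3.28 (adjusted p = 0.022). Without the CA2-rich libraries the values were -5.11, -4.95, -7.09 and -5.53, again a description, since the highest Pcp4 libraries of CA1 PNs were left out. Per transcript length, in TPM, transcript abundance scaled for length, the median of Pcp4 was 277 in DGCs, 25.2 in CA3 PNs, 277 in the CA2-rich and 2.20 in the other CA1 libraries.

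**Figure D3:**
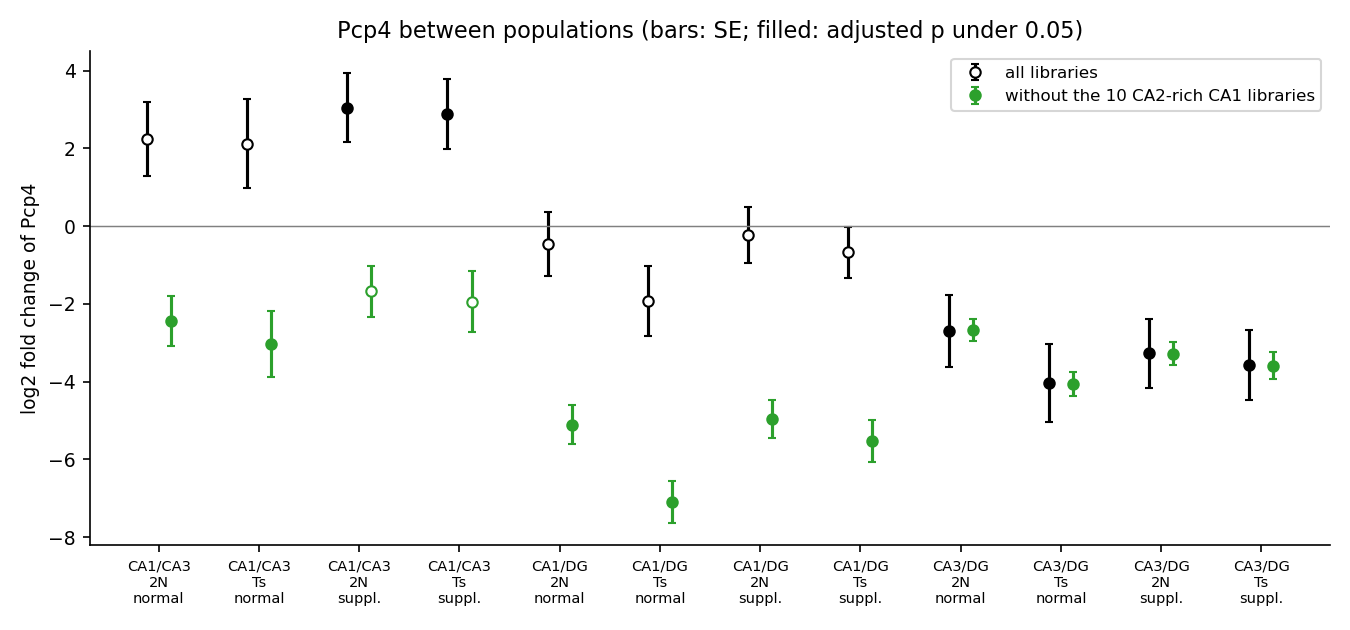
LFC of Pcp4 between populations in each genotype and diet, with all libraries and without the 10 CA2-rich CA1 libraries. Bars are ± 1 SE and filled points have an adjusted p under 0.05. The CA1 versus CA3 values lie between 2.11 and 3.05 with all libraries and between -3.03 and -1.67 without the CA2-rich ones. The 10 libraries left out have the highest Pcp4 in CA1 PNs, so filled CA1 points without them are not a test.

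Pcp4l1, the homolog of Pcp4 outside the triplicated segment, was highest in CA1 PNs. It had 11.1 to 65.0 CPM in CA1 PNs, 4.05 to 14.7 CPM in CA3 PNs and 1.895 to 15.2 CPM in DGCs. It was higher in CA1 PNs than in DGCs in 27 of 27 mice and than in CA3 PNs in 24 of 25. CA1 PNs versus CA3 PNs gave an LFC of 1.32 (SE 0.27) in 2N and 2.29 (SE 0.29) in Ts mice on the normal diet, and 1.89 (SE 0.27) and 1.92 (SE 0.27) on the supplemented diet, all called. CA1 PNs versus DGCs gave 1.98 to 2.19, all called. CA3 PNs versus DGCs was called only in 2N mice on the normal diet, at 0.87 (SE 0.33, adjusted p = 0.030), and was not called with library totals as the scale (0.67, adjusted p = 0.094), with limma-voom (0.77, adjusted p = 0.093) or without mice 15-145, 15-147, 17-154 or 17-21. Its means in the CA2-rich and other CA1 libraries were 35.8 and 26.1 CPM.

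By genotype Pcp4l1 in CA3 PNs stood lower in Ts mice on the normal diet. The 2N libraries had 4.92, 10.04, 10.9, 12.5, 13.2 and 14.7 CPM and the Ts libraries 4.05, 4.17, 6.59, 7.81, 8.22 and 8.59 CPM. All Ts libraries lay below 5 of the 6 2N libraries. The LFC was -0.72 (SE 0.30, unadjusted p = 0.020, adjusted p = 0.40), a DEG by the study's rule that did not pass adjustment. On the supplemented diet the LFC was 0.06 (SE 0.30, adjusted p = 0.999), and the genotype by diet difference in CA3 PNs was 0.79 (SE 0.42, adjusted p = 0.996). In CA1 PNs and DGCs the genotype LFC of Pcp4l1 lay between 0.08 and 0.46 and none was called.

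Neurogranin was among the most abundant of these transcripts and nearly even across populations. Its median was 1117 TPM in CA1 PNs, 1151 TPM in CA3 PNs and 1229 TPM in DGCs. No population difference was called, with LFC between -0.35 and 0.32. In CA1 PNs it was lower where CA2 markers were high, with means of 1134 ± 323 CPM (SD, n = 10) in the CA2-rich and 1736 ± 173 CPM (SD, n = 17) in the other libraries. Without the CA2-rich libraries Nrgn was called higher in CA1 than in CA3 PNs in 3 of 4 groups, at 0.49 (adjusted p = 0.0045) in 2N and 0.29 (adjusted p = 0.024) in Ts mice on the normal diet and 0.29 (adjusted p = 0.00014) in Ts mice on the supplemented diet. Leaving out only mouse 17-21 gave 0.41 (adjusted p = 0.00016) in 2N mice, and leaving out only mouse 16-357 gave 0.24 (adjusted p = 0.0012) in Ts mice on the normal diet. The CA1 libraries of both mice are CA2-rich. Higher Nrgn in CA1 PNs follows from leaving out CA2-rich libraries, where Nrgn was lower, so these fits are a description and not a test.

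In DGCs on the normal diet Nrgn was 1480, 1569, 1590, 1702, 1705 and 1760 CPM in the 2N libraries. The Ts libraries had 1291, 1316, 1389, 1441, 1452 and 1892 CPM. Thus 5 of 6 Ts libraries were below all 2N libraries and that of mouse 16-357 was above them all. The LFC was -0.17 (SE 0.07, unadjusted p = 0.034, adjusted p = 0.55), and without mouse 16-357 it was -0.25 (adjusted p = 0.0091). With the supplement the 2N libraries had 1104 to 2075 CPM and the Ts libraries 1275 to 1625 CPM, an LFC of -0.14 (SE 0.10, adjusted p = 0.85). In CA1 PNs the genotype LFC of Nrgn was -0.11 (SE 0.27) and 0.09 (SE 0.15) on these diets, and in CA3 PNs 0.08 (SE 0.11) and -0.07 (SE 0.13).

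Gap43 was found in both pyramidal populations and was close to the floor in DGCs. It had 13.5 to 77.9 CPM in CA1 PNs, 33.7 to 82.7 CPM in CA3 PNs and 0 to 5.60 CPM in DGCs, so DGCs overlapped with neither. The share of all genes without such overlap between these populations was not counted. The DGC library at 0 allows up to 2.94 CPM. CA3 PNs versus DGCs gave an LFC of 4.72 (SE 0.32), 5.24 (SE 0.42), 4.56 (SE 0.31) and 4.47 (SE 0.25) in 2N normal, 2N supplemented, Ts normal and Ts supplemented mice, and CA1 PNs versus DGCs gave 4.23, 4.77, 3.94 and 4.09, all called. CA1 PNs were below CA3 PNs in 20 of 25 mice. That difference was called in Ts mice on the normal diet, at -0.63 (SE 0.21, adjusted p = 0.024), but not without mouse 16-490 (adjusted p = 0.12) or 17-192 (adjusted p = 0.074) or with library totals (adjusted p = 0.062). It was called in 2N mice only with the mouse as a block, at -0.51 (adjusted p = 0.037) on the normal and -0.51 (adjusted p = 0.031) on the supplemented diet, against -0.49 (adjusted p = 0.075) and -0.47 (adjusted p = 0.15) without the block. Gap43 was lower in the CA2-rich CA1 libraries, 28.02 ± 12.6 CPM (SD, n = 10) against 49.3 ± 10.3 CPM (SD, n = 17).

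By genotype Gap43 did not pass the threshold in any population. In CA3 PNs on the normal diet it had 33.7 to 70.2 CPM (median 46.6) in 2N and 38.0 to 82.7 CPM (median 58.9) in Ts mice, an LFC of 0.33 (SE 0.16, adjusted p = 0.57). In CA1 PNs the LFC was 0.17 (SE 0.27) and 0.13 (SE 0.28) on the normal and supplemented diet. In DGCs it was 0.48 (SE 0.58) and 0.74 (SE 0.62), on levels of a few CPM.

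**Figure D4:**
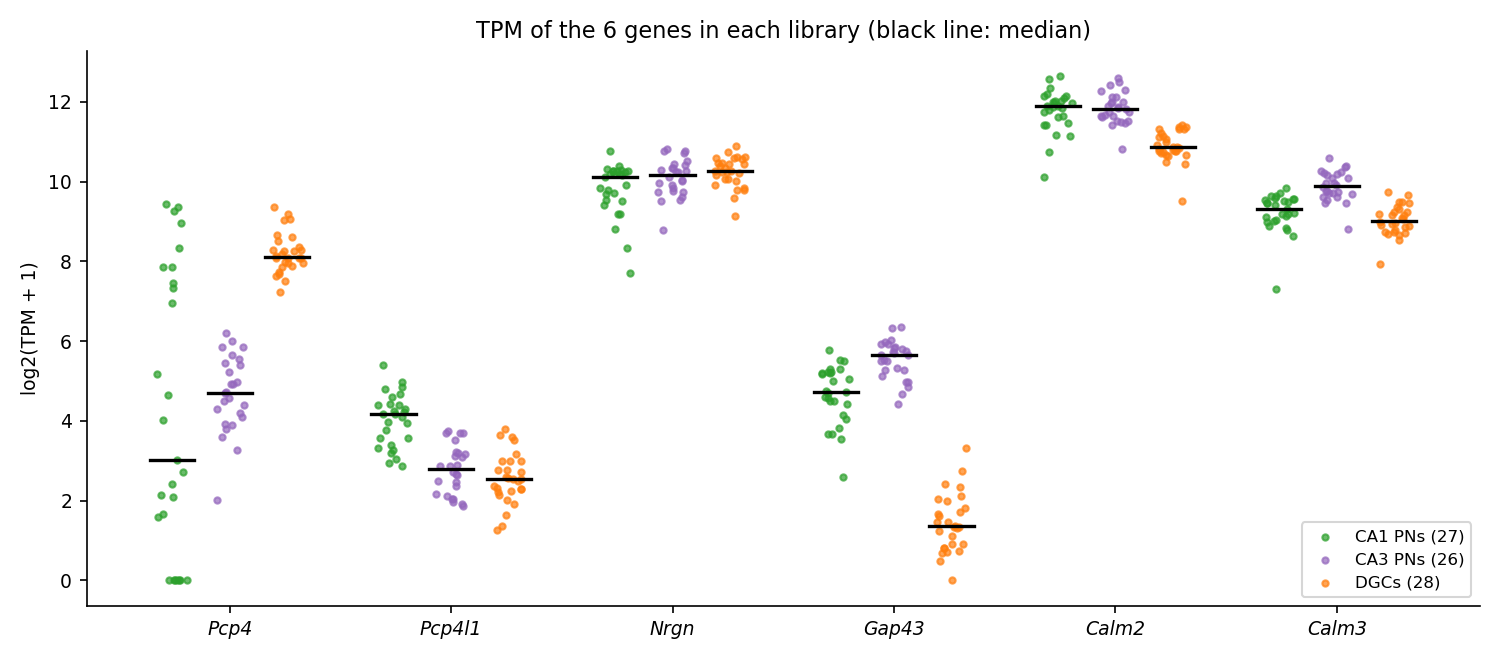
Level of the 6 genes as log2(TPM + 1) in each library, with colours for the 3 populations and the median as a line. Pcp4 spreads from 0 to 690 TPM in CA1 PNs, Gap43 is lowest in DGCs, and Calm2 has a higher median than Calm3 in all 3 populations.

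Calm2 had a higher level per length than Calm3, with a median of 3788 TPM in CA1 PNs, 3626 TPM in CA3 PNs and 1853 TPM in DGCs. Calm3 had 637, 951 and 519 TPM. The effective length of Calm2 in these tables was 344 bases, against 1855 for Calm3, so its TPM rests on a short modelled transcript. In CPM, Calm2 had 1298 to 2505 in CA1 PNs, 853 to 1753 in CA3 PNs and 587 to 877 in DGCs. It was highest in CA1 PNs in 24 of 25 mice against CA3 PNs and in 27 of 27 against DGCs, and CA3 PNs exceeded DGCs in 26 of 26. The LFC of CA1 PNs versus DGCs was 1.45 (SE 0.11), 1.16 (SE 0.12), 1.10 (SE 0.08) and 1.304 (SE 0.08) in 2N normal, 2N supplemented, Ts normal and Ts supplemented mice. CA3 PNs versus DGCs gave 0.79, 0.86, 0.68 and 0.75, all called. CA1 PNs versus CA3 PNs was called in 3 groups at 0.66, 0.42 and 0.56 and in 2N mice on the supplemented diet only with the mouse as a block, 0.32 (adjusted p = 0.0070) against 0.29 (adjusted p = 0.074).

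Calm3 was highest in CA3 PNs. It had 1070 to 1868 CPM in CA1 PNs, 1432 to 2208 CPM in CA3 PNs and 773 to 1314 CPM in DGCs, and exceeded CA1 PNs in CA3 PNs of 24 of 25 mice. CA3 PNs versus DGCs gave 0.84 (SE 0.10), 0.86 (SE 0.10), 0.76 (SE 0.07) and 0.81 (SE 0.09), and CA1 PNs versus DGCs gave 0.56, 0.49, 0.49 and 0.53, all called. CA1 PNs versus CA3 PNs gave -0.28, -0.37, -0.27 and -0.27, also called, but with library totals 3 of the 4 were not, at -0.22 (adjusted p = 0.11), -0.18 (adjusted p = 0.064) and -0.21 (adjusted p = 0.10) in 2N normal, Ts normal and Ts supplemented mice.

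By genotype neither Calm2 nor Calm3 passed the threshold. The nearest was Calm2 in CA1 PNs on the normal diet, with 1323, 1661, 1672, 1780, 2267 and 2371 CPM in 2N and 1321, 1460, 1556, 1610 and 1792 CPM in Ts mice. The upper 2N libraries stood above the Ts range, and the LFC was -0.28 (SE 0.14, adjusted p = 0.9996). Both groups held CA2-rich libraries. Over both diets Calm2 had a median of 1349 CPM (1298 to 2505) in the CA2-rich CA1 libraries and 1672 CPM (1426 to 2371) in the others. The part of this in the genotype and diet values of Calm2 in CA1 PNs was not tested. Calm3 LFC lay between -0.04 and 0.12 over the 6 comparisons.

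**Figure D5:**
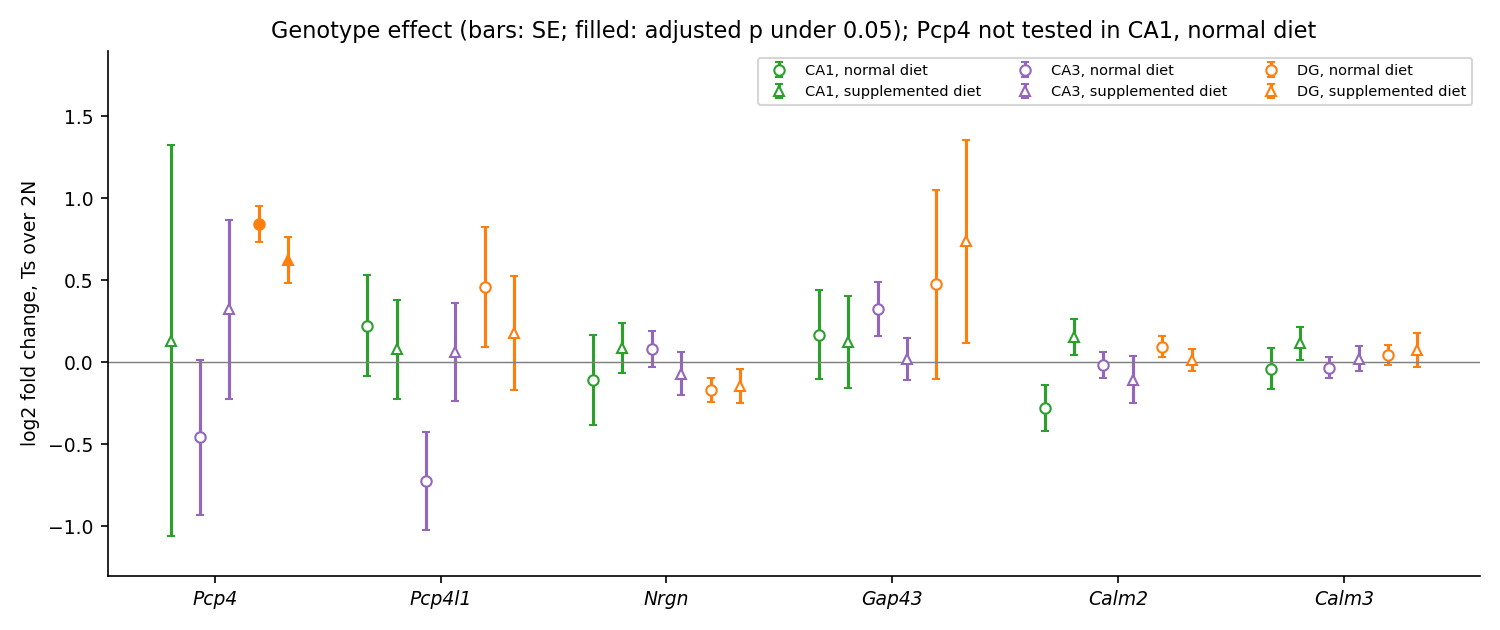
LFC of Ts versus 2N for the 6 genes in each population and diet, with bars of ± 1 SE and filled points for an adjusted p under 0.05. The filled points are those of Pcp4 in DGCs, at 0.84 and 0.63, and Pcp4 was not tested in CA1 PNs on the normal diet.

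For the tests of diet, the share of all genes with an unadjusted p under 0.05 was 3.05% of genes in Ts and 3.27% in 2N mice in CA1 PNs, 4.19% and 4.9% in CA3 PNs, and 3.81% and 5.82% in DGCs. At an adjusted p under 0.05 it was 0% in Ts and 0.012% in 2N mice in CA3 PNs, 0% and 0.00605% in DGCs, and 0% in both genotypes in CA1 PNs. For genotype by diet it was 3.22%, 4.87% and 3.97% in CA1 PNs, CA3 PNs and DGCs. For the genotype effect between populations the shares of genes with p under 0.05 were 4.22% for CA1 minus CA3 PNs, 5.51% for CA1 PNs minus DGCs and 5.18% for CA3 PNs minus DGCs on the normal diet, and 4.27%, 4.95% and 4.42% on the supplemented diet.

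Maternal choline diet changed none of the 6 genes at an adjusted p under 0.05. The largest difference relative to its error was Pcp4 in DGCs of Ts mice. Its range there was 155 to 234 CPM on the normal and 107 to 187 CPM on the supplemented diet, overlapping in part, and the LFC was -0.46 (SE 0.14, unadjusted p = 0.0023, adjusted p = 0.999). Without a filter on low counts the adjusted p was 0.0052 at the same LFC, and with only the 2 groups compared in the fit it was 0.36. In DGCs of 2N mice Pcp4 had -0.24 (SE 0.16, adjusted p = 0.92), and the genotype by diet difference was -0.22 (SE 0.21, adjusted p = 0.9997), so a difference between genotypes in the diet effect was not shown. Calm2 in CA1 PNs of 2N mice had 1323 to 2371 CPM on the normal and 1317 to 1719 CPM on the supplemented diet, an LFC of -0.27 (SE 0.12, unadjusted p = 0.035, adjusted p = 0.9998), and its genotype by diet difference was 0.40 (SE 0.18, unadjusted p = 0.029, adjusted p = 0.9999). Median sequencing depth was lower on the supplemented diet in 5 of 6 pairs of population and genotype and higher in CA1 PNs of Ts mice, with overlapping ranges of 625249 to 4744036 estimated counts on the normal and 358355 to 2559173 on the supplemented diet, and the part of depth or of any difference in sex was not tested.

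The other calmodulin pathway genes were taken as a list of 64 in 9 roles, of which 56 to 60 were tested. By genotype 2 of 57 rose in CA3 PNs on the normal diet, where 0.662% of all genes were called. They were Camk2g, a subunit of CaM kinase II, at 0.36 (SE 0.09, adjusted p = 0.040) and Pde1a, a calmodulin-activated phosphodiesterase, at 0.37 (SE 0.09, adjusted p = 0.022). In DGCs on the normal diet 2 of 56 fell, where 0.588% of all genes were called. Camk2n1, an inhibitor of CaM kinase II, had -0.35 (SE 0.08, adjusted p = 0.0089) and Camkk1, a kinase that activates other CaM kinases, had -0.30 (SE 0.08, adjusted p = 0.047). The median LFC of the list was -0.06 there, against 0.003 over all genes. In CA1 PNs on both diets, and in CA3 PNs and DGCs on the supplemented diet, 0 were called. By diet 1 gene of the list was called, Camk1 in CA3 PNs of 2N mice at -0.74 (SE 0.15, adjusted p = 0.018), where 0.012% of all genes were called.

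Between populations most of the list was called. In 2N mice on the normal diet CA3 PNs exceeded DGCs in 30 of 58 genes and were below them in 13, where 43.7% of all genes were called. The median LFC of the list was 0.34 against -0.04 over all genes, and library totals made the counts 26 and 18. For CA1 PNs versus DGCs 22 were higher and 22 lower (34.3% of all genes called), and for CA1 versus CA3 PNs 17 were higher and 23 lower (23.3%). The protein kinase C genes Prkca (2.19 in CA1 PNs and 2.21 in CA3 PNs versus DGCs) and Prkcb (2.66 and 2.39) were higher in the pyramidal populations, while Prkce was lower in CA1 PNs than in DGCs (-0.41). The calcineurin genes Ppp3cb (1.08 and 1.12) and Ppp3r1 (0.98 and 0.77) were higher there as well. The calcineurin gene Ppp3ca, named after its values were seen, was called lower in CA3 PNs than in DGCs (-0.42). The inhibitors Camk2n1 (-1.74) and Camk2n2 (-1.89) were lower in CA1 than in CA3 PNs. DGCs exceeded CA3 PNs in Adcy1, a calmodulin-stimulated adenylyl cyclase (-4.35), in the calmodulin-binding protein kinase C substrates Marcks (-2.49) and Marcksl1 (-6.32) and in the calcium buffer Calb1 (-9.57), while Basp1, a substrate of the same kind, had 1.27 in CA3 PNs versus DGCs.

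The genes whose pattern was most like that of Pcp4 over the 27 CA1 libraries, by Pearson r of residuals from group means among 9811 genes, were Nrip3 (0.97), Amigo2 (0.97), Spock1 (0.97), Cacng5 (0.96), Cpne4 (0.96), Trpm3 (0.96), Necab2 (0.96), Mctp1 (0.95), Rapgef4 (0.95) and Fyb2 (0.95). Amigo2, Cacng5 and Necab2 are on the CA2 list and Cpne4 is on the CA3 list. The residuals keep the split between the CA2-rich and the other CA1 libraries. A gene that differs between these clusters can get a high r from that split alone. These r therefore cannot show likeness to Pcp4 within a cluster, and no r within a cluster is given for these genes. Over all 81 libraries the leading genes by Spearman rho among 9831 were Fhip1a (0.89) for Pcp4, Serpini1 (0.78) for Pcp4l1, Arhgef2 (0.67) for Nrgn, Gm49677 (0.86) for Gap43, Tspan13 (0.93) for Calm2 and Basp1 (0.90) for Calm3. The values of both kinds are descriptions, since the CA1 libraries form clusters and the libraries share mice, populations and depth.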

How the data were processed

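Expected counts per gene (RSEM, after STAR alignment) are those the authors deposited, from reads checked with FastQC 0.11.9, trimmed with Trimmomatic 0.39 and assessed with Picard 2.26.2, per the labels on GRCm39 and mm10. Libraries were made with a stranded total RNA kit for picogram input. Here the counts were rounded. Totals ranged from 358355 to 4744036 per library. Genes above 0.1 CPM in at least 10 libraries were kept, as in the study, and scaled by TMM. edgeR 4.0.16 (R 4.3.3) quasi-likelihood tests compared genotypes in each population and diet, diets in each population, and populations in each genotype and diet. TPM are those the authors deposited.

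DESeq2 1.42.0, limma-voom (limma 3.58.1), other filters and scales, the CA2 mean as a covariate and leaving out libraries were alternatives. Some items are not reported here and were left out of the lists and counts. The functions were tested on simulated counts. The study's mixed model and its covariates were not used here. The members and lists were chosen with earlier results of these data known. The named genes are all 6 members, up to 3 called pathway genes per role and the nearest tested triplicated neighbours. Libraries of the 3 populations from 1 mouse are paired by animal, and deviations of 78 same-mouse pairs correlated at 0.0059 to 0.18 (median 0.085, 31 over 0.1). Mice are the replicates, and intervals from counts cover counting error only.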

Additional observations from a re-analysis of the deposited data

Results flagged for a closer look

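In 6 of 72 groups of 4 to 10 libraries the highest or lowest library was past Dixon's 95% critical value. That value is set for about 1 of 20 independent groups with normal spread. The groups here share libraries across the 6 genes, and Pcp4 in CA1 PNs forms clusters, so that rate does not apply to them. Of these, 5 were libraries of Ts mouse 16-357 on the normal diet. Its CA1 library had 261.17 CPM of Pcp4, next to 2.64 CPM, and 881.842 CPM of Nrgn, next to 1586 CPM, and is CA2-rich. Its CA3 library had 35.974 CPM of Pcp4, next to 16.1 CPM. Its DGC library had 1891.649 CPM of Nrgn, next to 1452 CPM, and 1171.021 CPM of Calm3, next to 1010 CPM. The CA1 library of Ts mouse 15-199 on the supplemented diet, also CA2-rich, had 2504.703 CPM of Calm2, next to 1749 CPM.

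Of 54 differences between effects, 4 had an unadjusted p under 0.05 and none passed adjustment by edgeR (adjusted p = 0.87 or higher). The genotype by diet difference of Calm2 in CA1 PNs was 0.3989 (unadjusted p = 0.029). The genotype effect on Pcp4l1 on the normal diet was higher by 0.9725 in CA1 than in CA3 PNs (unadjusted p = 0.019) and differed by -1.1938 in CA3 PNs minus DGCs (unadjusted p = 0.014), both resting on the same CA3 libraries. The genotype effect on Calm2 on the normal diet differed by -0.3667 in CA1 PNs minus DGCs (unadjusted p = 0.019).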

How the results depend on the processing

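Over 200 results, 5112 of 5194 alternative values kept their side of the threshold with no counted turn. A turn is a change of direction where either value compared was called. Changes of direction between uncalled values, such as Pcp4 in CA1 versus CA3 PNs on the normal diet with limma-voom, were not counted. For Pcp4, 818 of 854 did, 20 lost the call, 11 gained it and 5 turned, and in the other genes none turned. The Pcp4 genotype LFC in DGCs on the normal diet kept its call throughout (0.73 to 0.90). That on the supplemented diet was 0.63 (adjusted p = 0.055) with both diets in 1 fit and 0.51 to 0.72 on leaving out 1 library. The Pcp4 diet LFC in DGCs of Ts mice was called only without a filter (-0.46, adjusted p = 0.0052). Without the 10 CA2-rich libraries Pcp4 in CA1 versus CA3 PNs was -2.44, -1.67, -3.03 and -1.94 in 2N normal, 2N supplemented, Ts normal and Ts supplemented mice, and in CA1 PNs versus DGCs -5.11, -4.95, -7.09 and -5.53. Those 10 have the highest Pcp4 in CA1 PNs, so lower values without them follow from the choice. limma-voom gave 0.76 and 0.80 for CA1 versus CA3 PNs on the supplemented diet, in 2N and Ts mice, and -3.33, -2.63, -5.79 and -3.21 for CA1 PNs versus DGCs. With the mouse as a replicate block these were 2.42 and 2.13 for CA1 versus CA3 PNs on the supplemented diet and -3.28 for CA1 PNs versus DGCs in Ts mice on the normal diet, and other calls that the block changed stand in the report for Gap43 and Calm2. Leaving out 1 mouse gave Pcp4 in CA1 versus CA3 PNs 2.49 to 3.31 (2N supplemented), -2.59 to 2.44 (Ts normal) and 2.58 to 3.12 (Ts supplemented), CA1 PNs versus DGCs -7.07 to -1.53 (Ts normal) and CA3 PNs versus DGCs -2.84 to -2.53 (2N normal). With Rgs14 alone the Pcp4 correlation in the other 17 CA1 libraries was 0.25. The cause of these changes was not tested. Depth limits Pcp4 in the CA1 libraries with 0 to 12 counts, and DESeq2 gave no adjusted p for 9 values.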
